A study of Rattus norvegicus with 8 samples.

Results

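Genes that handle iron and copper were followed in the hypothalamus of rats given all-trans retinoic acid (RA) into the brain: ceruloplasmin (Cp), Lcn2, Hmox1, Fth1, Ftl1, Tfrc, Tf, Slc40a1, Slc11a1 and Steap4. These 10 of the 15159 named genes on the array were chosen by their symbols with the RA over vehicle log2 ratios of the same arrays already known, and Cp was selected on its large log2 ratio, so the values below describe the genes and their difference between RA and vehicle was not tested. The 10 genes had 15 probes, and the brightest probe of each gene was used unless another is named.

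RNA came from hypothalamic blocks, arcuate nuclei included, of male F344N rats. The 4 RA rats and the 4 vehicle rats all lived in SD photoperiod, had surgery to place a cannula in the third ventricle, passed a drinking test with angiotensin a week before, received 1 injection through the cannula and were killed a day later. The labels give the RA as 1e-05 M and the vehicle as saline. The methods give another concentration for the experiment with 4 rats in each group, and 1e-05 M for its repeat made for in-situ hybridisation. There the vehicle was DMSO in saline. On 8 two-colour arrays of 1 slide, an RA sample and a vehicle sample were hybridised together, with RA in Cy5 on arrays 1, 3, 6 and 8 and in Cy3 on arrays 2, 4, 5 and 7. Each sample was used with both dyes, but which arrays share RNA is not stated, so the 8 arrays are not 8 independent comparisons and the SD over them is a spread between arrays. The scan names place arrays 1 to 4 on slide row 1 and arrays 5 to 8 on slide row 2, and slide row and rat cannot be told apart. In a tissue block, fewer cells of a type and less RNA per cell cannot be told apart either.

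The tissue label was checked on 13 hypothalamic neuropeptides, of which 12 were on the array and all 12 were well above background in both channels throughout. Pairs of arrays stood apart in such markers: Ttr, the transthyretin of choroid plexus, was at -4.48 and -5.11 on arrays 6 and 7 and above 0 on the other 6, and Agrp, a peptide of arcuate neurons, was at -1.04 and -1.11 on arrays 8 and 5 and between -0.09 and 0.05 elsewhere. The median log2 ratio of the 10 members given below, 0.53, was 0.37 without arrays 6 and 7 and 0.50 without arrays 8 and 5. Without arrays 6 and 7, Cp was at 2.39, Steap4 at 1.33, Lcn2 at 1.22, Slc11a1 at 0.68 and Hmox1 at 0.54, and without arrays 8 and 5 they were at 2.39, 1.43, 1.45, 0.85 and 0.75.

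Iron enters most brain cells bound to transferrin through its receptor, is stored in ferritin and leaves through ferroportin. Ferroportin passes out ferrous iron, which a copper enzyme such as ceruloplasmin oxidises so that transferrin can bind it. During inflammation, cells also make proteins that keep iron from microbes, and haem oxygenase frees iron from haem.

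The upstream sequences of the 3 genes with the highest mean log2 ratios are shown first, since these genes had the highest values. Their promoters were searched for the motifs named below, none of which is the site of a metal-sensing factor. Each is the 250 bases before the RefSeq start of the gene in build GRCr8, written along the gene's strand: Cp at chr2:104368420-104368669 (+ strand), Steap4 at chr4:27054770-27055019 (- strand) and Lcn2 at chr3:36081781-36082030 (- strand). Capitals mark a match to 1 of the motifs.
Cp: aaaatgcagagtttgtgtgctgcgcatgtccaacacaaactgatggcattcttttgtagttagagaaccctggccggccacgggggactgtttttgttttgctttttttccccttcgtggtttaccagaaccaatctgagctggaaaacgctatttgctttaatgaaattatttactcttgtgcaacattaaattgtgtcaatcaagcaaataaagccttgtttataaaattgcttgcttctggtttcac
Steap4: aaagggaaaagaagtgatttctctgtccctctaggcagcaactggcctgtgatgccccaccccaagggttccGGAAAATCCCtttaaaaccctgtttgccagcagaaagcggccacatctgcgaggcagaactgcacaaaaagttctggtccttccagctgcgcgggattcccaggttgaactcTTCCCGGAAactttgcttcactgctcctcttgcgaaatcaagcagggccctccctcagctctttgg
Lcn2: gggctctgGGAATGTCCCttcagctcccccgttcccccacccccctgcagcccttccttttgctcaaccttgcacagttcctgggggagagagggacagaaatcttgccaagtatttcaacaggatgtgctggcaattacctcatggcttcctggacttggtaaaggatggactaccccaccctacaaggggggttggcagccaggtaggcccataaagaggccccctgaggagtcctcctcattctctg
Searched on both strands were TTCNNNGAA (bound by STAT factors), the NF-kB consensus, TGACNNNGC (the antioxidant response element), ACGTG (the core of the hypoxia response element) and AGGTCA (the hexamer that nuclear receptors bind, RA receptors included). In Steap4 a STAT match began 66 bases and an NF-kB match 178 bases before the start, in Lcn2 an NF-kB match began 242 bases before it, and the Cp window held none of the 5. Of 33469 rat promoters of the same length, 7.67% held the STAT motif and 6.33% the NF-kB consensus. The antioxidant, hypoxia and nuclear receptor motifs occurred in 10.1%, 16.6% and 14.1% of promoters. RefSeq promoters were at hand for 6 of the 10 genes: of the other 3, Tfrc held a hypoxia core and Tf a nuclear receptor hexamer, and Slc40a1 held none. A match is a description of letters, not of binding.

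Across the 10 genes, log2 ratios (0 means equal RA and vehicle signal) ran from clearly above 0 to near 0. The mean log2 ratio was above 0 in 9 genes, and in 47.6% of all named genes. On all 8 arrays the log2 ratio was above 0 in Cp, Lcn2, Steap4, Slc11a1, Hmox1 and Ftl1, with Hmox1 at 0.0024 on array 4. The share of named genes above 0 on all 8 arrays was not counted. Nothing is read from these counts, since the members were chosen with this contrast known. The median of the 10 means was 0.53, beside -0.0046 over all named genes. In the plot of the members by array, Cp, the metalloreductase Steap4, the siderophore binder Lcn2, the phagosomal transporter Slc11a1 and haem oxygenase Hmox1 had means of 0.80 or more, and the genes of ferritin, transferrin, its receptor and ferroportin lay between -0.02 and 0.27.

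**Figure D1:**
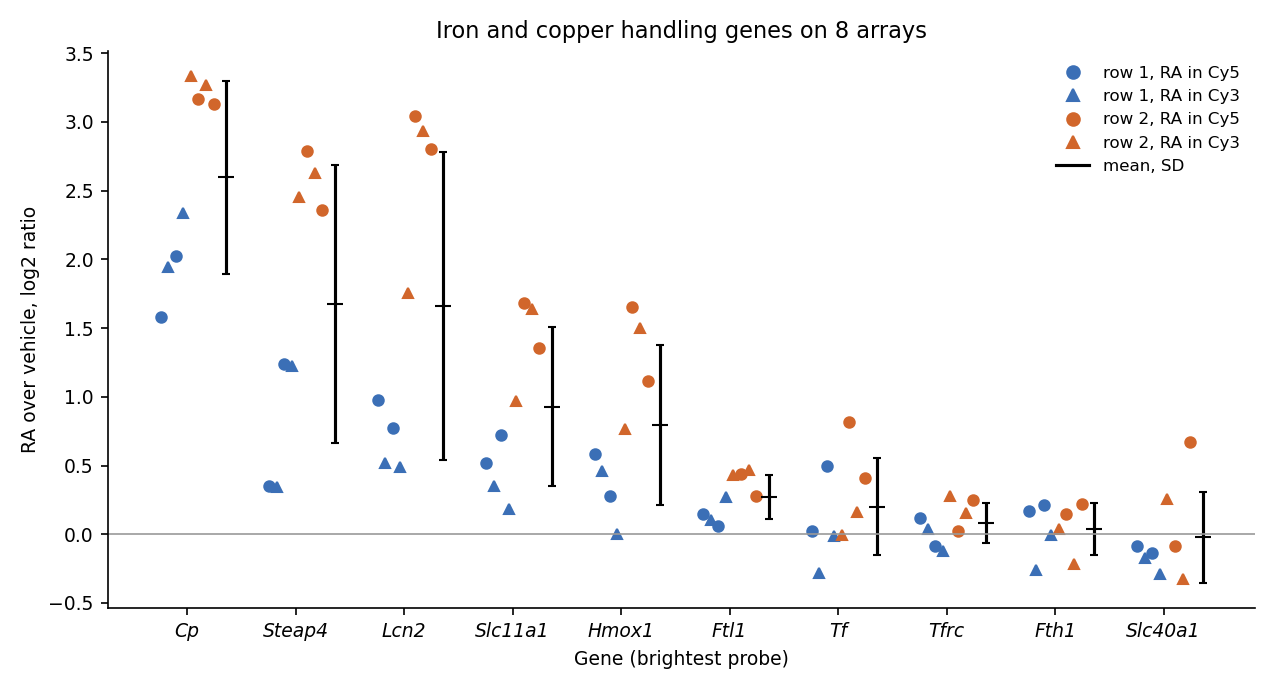
RA over vehicle log2 ratio (y axis) of the brightest probe of each of the 10 genes (x axis) on the 8 arrays, shown left to right as arrays 1 to 8. Colour gives the slide row, the symbol gives the dye of RA, and the bar at the right of each gene is the mean with the SD over 8 arrays. Cp runs from 1.58 to 3.33, and for 6 genes every array of the second row lies above every array of the first.

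Cp encodes ceruloplasmin, the ferroxidase that carries most of the copper in plasma and that astrocytes anchor to their membrane. On arrays 1 to 8 its log2 ratios were 1.58, 1.94, 2.03, 2.34, 3.33, 3.17, 3.27 and 3.13. The RA channel read from 9.83 to 12.01 (median 11.2) on the log2 intensity scale and the vehicle channel from 7.93 to 8.79 (median 8.60), so the groups did not overlap. The mean log2 ratio was 2.60 ± 0.70 (SD, n = 8 arrays), a 6.06-fold difference. Arrays with RA in Cy5 averaged 2.48 and those with the reverse labelling 2.72. The arrays of the second row were all higher than those of the first, at 3.22 ± 0.09 (9.35-fold) against 1.97 ± 0.31 (3.92-fold; SD, n = 4 arrays each).

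The other probe of Cp, A_43_P11448, carries the same transcript accession as the brightest probe, A_64_P036925. It was higher in RA as well, with log2 ratios of 0.31, 0.21, 0.80, 0.89, 0.86, 1.48, 1.45 and 1.08 on arrays 1 to 8. Its mean was 0.89 ± 0.46 (SD, n = 8 arrays), a 1.85-fold difference. Its RA levels (7.08 to 8.63) and vehicle levels (6.86 to 7.23) overlapped, as did the values of the slide rows. Both probes were well above background in both channels of all 8 arrays, and the mean of the 2 probes was 1.74. The probes shared the direction and not the size, and the sequences of the probes were not used here.

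Steap4 encodes a metalloreductase that reduces iron and copper at the membrane before uptake. Its log2 ratios were 0.35, 0.34, 1.24, 1.23, 2.46, 2.79, 2.63 and 2.36 on arrays 1 to 8. They fell into 3 levels: arrays 1 and 2 lowest, arrays 3 and 4 between, and all of the second row highest. The mean was 1.67 ± 1.01 (SD, n = 8 arrays), a 3.19-fold difference, with 0.79 in the first row and 2.56 in the second. The vehicle channel was well above background on 6 of 8 arrays, and its highest level (7.03) just passed the lowest RA level (7.02). A second probe, A_64_P089561, well above background in each channel on only 5 of 8 arrays, ranged from -0.24 to 0.66 with a mean of 0.18. With Agilent's own log ratio the brightest probe gave 2.81.

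Lcn2 encodes lipocalin 2, which binds bacterial siderophores and so withholds iron. Its log2 ratios were 0.97, 0.52, 0.78, 0.49, 1.76, 3.05, 2.93 and 2.80 on arrays 1 to 8. Arrays 6, 7 and 8 stood near 3, array 5 between, and the first row below 1. RA levels ran from 6.94 to 9.78 and vehicle levels from 6.28 to 6.78 without overlap. The mean was 1.66 ± 1.12 (SD, n = 8 arrays), a 3.16-fold difference, with 0.69 (1.61-fold) in the first row and 2.64 (6.21-fold) in the second. Vehicle was well above background on only 4 of 8 arrays, and with plain subtraction of the background the mean was 3.43.

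Slc11a1 encodes the metal transporter of macrophage phagosomes, which draws iron away from engulfed microbes. Its log2 ratios were 0.52, 0.35, 0.72, 0.19, 0.97, 1.68, 1.64 and 1.35 on arrays 1 to 8. RA levels (7.48 to 9.08) lay above vehicle levels (7.08 to 7.44) without overlap. The mean was 0.93 ± 0.58 (SD, n = 8 arrays), a 1.90-fold difference, with 0.44 in the first row and 1.41 in the second; plain subtraction of the background gave 1.41 over all arrays.

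Hmox1 encodes the inducible haem oxygenase, which splits haem and frees its iron. Its log2 ratios, each a mean of 10 spots of 1 probe, were 0.58, 0.46, 0.28, 0.00, 0.77, 1.65, 1.50 and 1.12 on arrays 1 to 8. Array 4 lay at 0 and arrays 6 and 7 were highest. The mean was 0.80 ± 0.58 (SD, n = 8 arrays), a 1.74-fold difference, with 0.33 in the first row and 1.26 in the second. RA levels (8.44 to 10.1) overlapped vehicle levels (8.22 to 8.53). Over the 8 arrays Hmox1 lay nearest to Slc11a1 of all pairs of members, with a root mean square difference of 0.21.

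**Figure D2:**
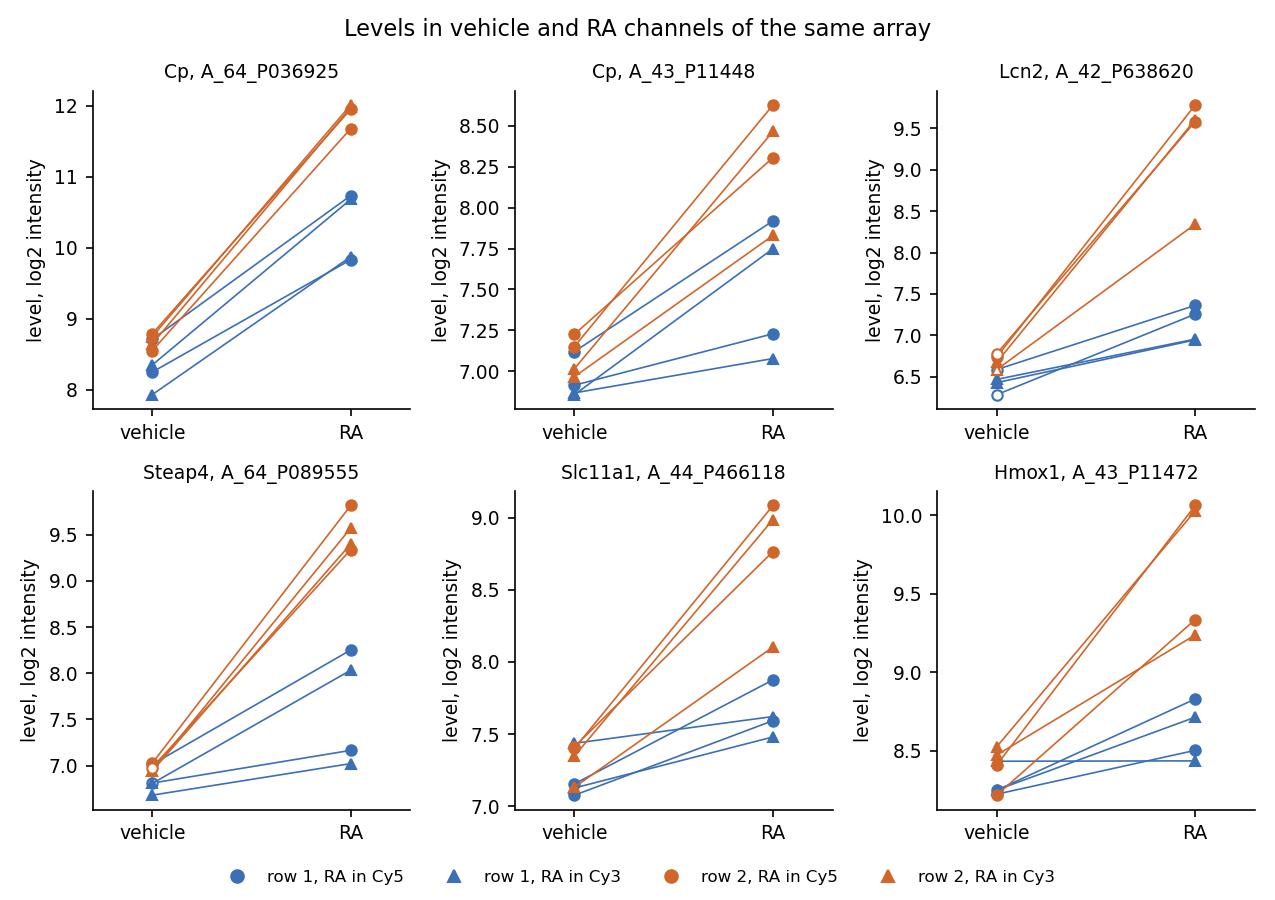
Level on the log2 intensity scale (y axis) in the vehicle and RA channels of each array, joined by a line, for both probes of Cp and the brightest probes of Lcn2, Steap4, Slc11a1 and Hmox1. Open symbols were not well above background; colour gives the slide row and the symbol the dye of RA. The vehicle levels lie close together while the RA levels spread, with the second row uppermost for all but the second Cp probe.

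Of the members, 3 (Cp, Lcn2 and Slc11a1) had RA and vehicle levels that did not overlap over the 8 arrays, as did 0.264% of named genes with RA higher. Likewise 6 (Cp, Lcn2, Hmox1, Ftl1, Slc11a1 and Steap4) had all 4 second-row arrays above all 4 first-row arrays, against 5.28% of named genes. The members were chosen on this contrast, so nothing is read from these shares, and the part of the slide row in the values was not tested.

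Ferritin stores iron in a shell of heavy and light chains. For Ftl1, the light chain, the log2 ratios were 0.15, 0.10, 0.06, 0.27, 0.43, 0.44, 0.46 and 0.28 on arrays 1 to 8. All were above 0, at most 0.46, and the mean was 0.27 ± 0.16 (SD, n = 8 arrays), a 1.21-fold difference. For Fth1, the heavy chain with the ferroxidase site, the log2 ratios were 0.17, -0.26, 0.21, -0.01, 0.04, 0.15, -0.21 and 0.22. Its mean of 0.04 ± 0.19 (SD, n = 8 arrays) was smaller than the spread, and the dye orders gave means of opposite sign: 0.19 where RA was in Cy5, -0.11 where it was in Cy3. A second Fth1 probe had a mean of 0.03 with the same split, 0.21 and -0.16.

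Transferrin (Tf), the plasma carrier of iron, is made in the brain by oligodendrocytes and choroid plexus. Its log2 ratios were 0.02, -0.28, 0.49, -0.01, -0.01, 0.82, 0.16 and 0.41 on arrays 1 to 8. The mean of 0.20 ± 0.35 (SD, n = 8 arrays) was within the spread, with 0.44 where RA was in Cy5 and -0.03 where it was in Cy3. The oligodendrocyte markers, all 10 on the array and well above background, had a median log2 ratio of -0.22 with 1 of 10 above 0, and their summed level ran from 102311 to 149728 in RA and from 121496 to 192504 in vehicle. The 9 choroid plexus markers had medians of -1.38 and -1.57 on arrays 6 and 7 and between 0.07 and 0.64 on the others, and their summed level ran from 2072 to 139384 in RA and from 1913 to 251598 in vehicle. The part of these cells in the Tf values was not tested.

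Tfrc, the transferrin receptor, ranged from -0.12 to 0.28 over the 8 arrays with a mean of 0.08 ± 0.15 (SD, n = 8 arrays), and its other probe had a mean of -0.05. Slc40a1, or ferroportin, had log2 ratios of -0.08, -0.17, -0.13, -0.29, 0.26, -0.08, -0.33 and 0.67 on arrays 1 to 8. Its mean of -0.02 ± 0.33 (SD, n = 8 arrays) was the only one of the 10 below 0, and only arrays 5 and 8 lay above 0. Its other probe gave -0.18 ± 0.26 (SD, n = 8 arrays). For the receptor and the exporter the mean was within the spread between arrays.

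Several of the members are expressed by myeloid cells, and markers of those cells were read on the same arrays. Of 8 microglial markers, all on the array and well above background throughout, 5 had a mean above 0. The list median was 0.23, with 0.03 to 0.18 on the first row and 0.22 to 0.44 on the second, and the summed level ran from 26445 to 49445 in RA and from 19998 to 32005 in vehicle. Aif1 (0.88), Itgam (0.87) and C1qa (0.83) were high, whereas Tmem119 (-0.52) and P2ry12 (-0.15), markers of resting microglia, were not. Of 9 neutrophil markers, 8 were on the array and 6 had a mean above 0, with a list median of 0.07. Elane and Mmp8 were well above background on no array, and the summed level ran from 818 to 2237 in RA and from 730 to 929 in vehicle. The calcium binders S100a9 (1.25) and S100a8 (0.94) were the highest of the list, and the others lay between -0.12 (Mmp8) and 0.42 (Csf3r). S100a9 was at 1.10, 1.20, 0.14, 0.43, 0.71, 2.83, 2.75 and 0.86 on arrays 1 to 8. Of the 5 erythroid markers on the array, none had a mean above 0. Their median was -0.33, -0.40, 0.93, 0.76, -0.88, 0.19, 0.11 and -0.70 on arrays 1 to 8. The astrocyte list had a median of -0.17, although Gfap, the astrocyte intermediate filament, was at 1.40. The macrophage and monocyte, endothelial and neuron lists had medians of 0.10, -0.02 and -0.16. What these cells contributed to the members was not tested.

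**Figure D3:**
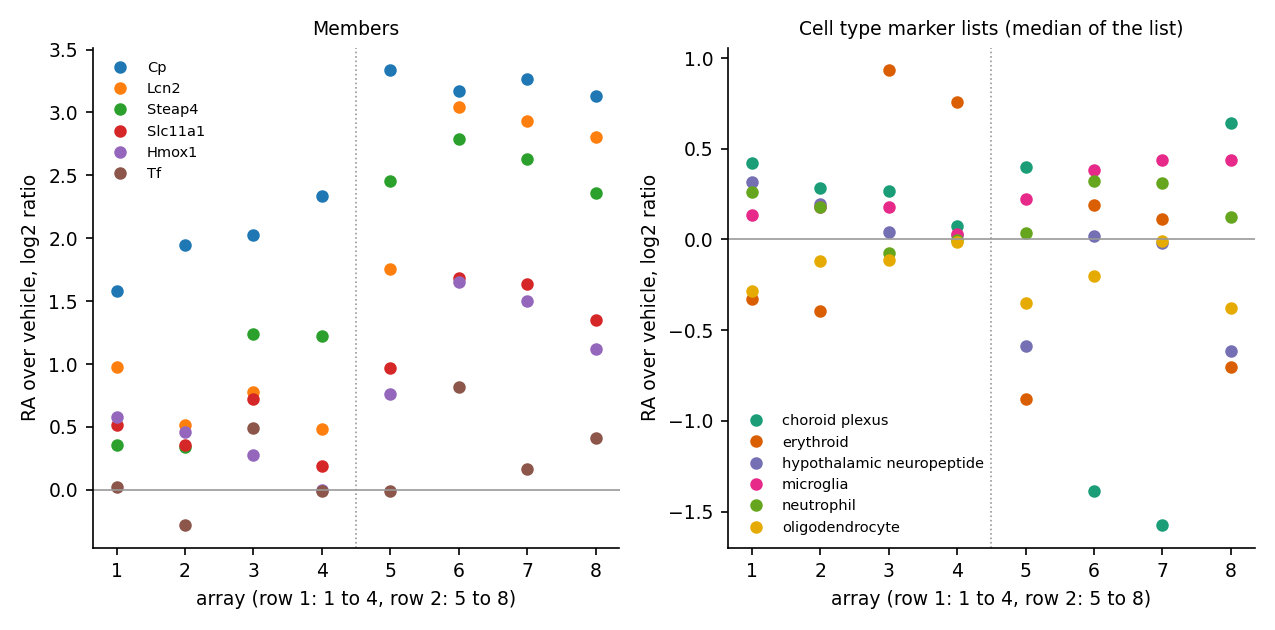
RA over vehicle log2 ratio (y axis) on each array (x axis, first slide row left of the dotted line) for 6 members (left) and for the median of 6 lists of cell type markers (right). Cp, Lcn2, Steap4, Slc11a1 and Hmox1 are higher on arrays 5 to 8, while choroid plexus markers are low on arrays 6 and 7 and erythroid markers are high on arrays 3 and 4.

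Whether other genes of iron, haem and copper handling moved was read from a fit across all 30367 probes: limma on 4 values, each averaging an array of either dye order, taking for each probe the largest p over the 24 possible pairings, at the unadjusted threshold of 0.01 that the methods used. Of 71 such genes on the array, 3 were higher in RA and 1 was lower. Over all named genes, 3.52% were higher and 0.792% lower by this rule. No gene of the lists, and none of the 15159, had a Benjamini-Hochberg adjusted p under 0.05 in this limma fit, where 1979 named genes and 10 of the 71 had an unadjusted p under 0.05. The median of the 71 was -0.01, and 40.8% of them lay above 0, against 47.6% of named genes.

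Metallothioneins, small proteins that bind zinc and copper, gave the highest values. Mt2A had log2 ratios of 0.72, 0.62, 0.87, 0.63, 2.37, 1.66, 1.58 and 2.70 on arrays 1 to 8, all above 0 and again higher in the second row. Its mean was 1.39 ± 0.82 (SD, n = 8 arrays), a 2.63-fold difference (limma adjusted p = 0.25). Mt1 had 0.60, 0.35, 0.37, -0.06, 0.73, 1.02, 0.75 and 1.05, above 0 on 7 arrays, with a mean of 0.60 ± 0.37 (limma adjusted p = 0.242). Mt1 and Mt2A are close copies, and a probe may bind both. Mt3, the brain form, Mt4 and the zinc sensor Mtf1 did not pass, at -0.03, -0.12 and 0.00.

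Of the 12 copper genes, Slc31a2, a copper transporter of endosomes, was higher at 0.33 ± 0.19 (limma adjusted p = 0.268; above 0 on all 8 arrays), and Cox11, which hands copper to cytochrome oxidase, was lower at -0.18 ± 0.08 (limma adjusted p = 0.276; below 0 on all 8). No gene passed among the 16 of haem handling read here, 12 of iron uptake, 6 of storage, traffic and export, 7 of iron regulation and 13 of mitochondrial iron. In these lists the values furthest from 0, among genes above background in at least 1 channel of every array, were -0.21 for Steap2, -0.15 for Slc22a17, 0.09 for Pcbp2, -0.08 for Heph, -0.17 for Hfe, 0.06 for Aco1, -0.13 for Iscu and 0.13 for Slc25a37. Slc39a14, a metal importer, had the value furthest from 0 of the iron uptake list, 0.24, and was above background on 7 of 8 arrays. In the haem list they were 0.36 for Hp, or haptoglobin, which binds free haemoglobin, and 0.17 for Cd163, the receptor that takes up that complex (limma adjusted p = 0.318 and adjusted p = 0.332). With plain subtraction of the background none of the 4 genes passed (from 0.0104 for Cox11 to 0.022 for Slc31a2, as unadjusted limma values), at log2 ratios of 1.41 for Mt2A, 0.61 for Mt1, 0.36 for Slc31a2 and -0.33 for Cox11. With Agilent's log ratio none of the 3 higher genes passed, at 1.42 for Mt2A, 0.60 for Mt1 and 0.32 for Slc31a2. When each of 16 pairs of arrays of opposite dye was left out, Mt1 and Mt2A passed in all 16 fits, Slc31a2 in 10 and Cox11 in 4.

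**Figure D4:**
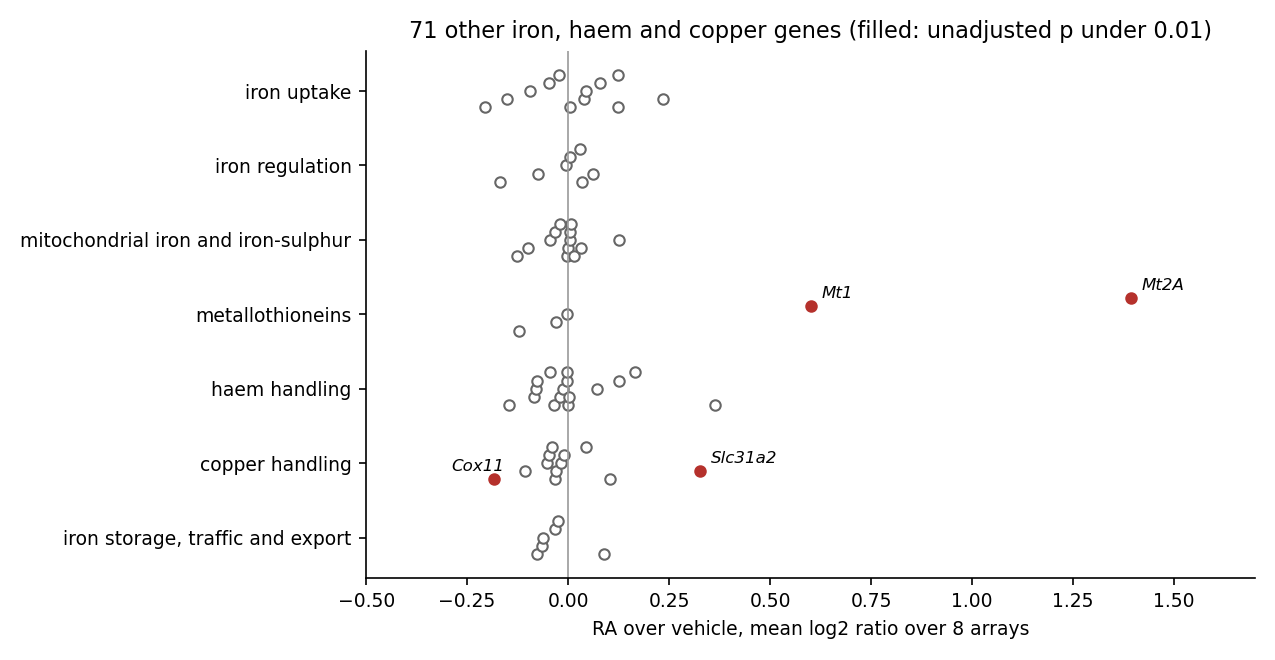
Mean RA over vehicle log2 ratio over 8 arrays (x axis) of the 71 other genes, each a circle, by list (y axis). Filled circles passed the unadjusted threshold of 0.01: Mt2A, Mt1 and Slc31a2 above 0 and Cox11 below 0. All other genes lie between -0.21 and 0.36.

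The genes whose 8 log2 ratios lay nearest to those of Cp were sought among 10877 other genes that cleared the background in at least 1 channel of every array. By root mean square difference they were Hspb1 (0.57), a small heat shock protein; Plac8 (0.66), a gene named for its placental expression; Timp1 (0.70), an inhibitor of matrix metalloproteinases; Fcgr3a (0.70), an Fc receptor of myeloid cells; and H19 (0.73), an imprinted non-coding RNA. Hspb1 had log2 ratios of 1.39, 1.13, 2.14, 1.63, 2.26, 3.26, 3.12 and 2.70 on arrays 1 to 8, with a mean of 2.21. The means of the other 4 were between 2.00 and 2.86. No member was among the 5, and the other Cp probe, with a mean of 0.89, was not compared in this way.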

How the data were processed

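The authors deposited the Agilent scan of each array, with Cy3 and Cy5 median and background intensity (linear) for every spot, Agilent's log10 ratio of Cy5 over Cy3, and a table of log2 ratios that they had normalised by loess with limma. Here the intensities were used: normexp background correction (offset 50), control spots left out, outlier spots set missing, loess within arrays, probes averaged, and signs turned to RA over vehicle (limma 3.58.1, R 4.3.3). Channel levels were scaled between arrays by A-quantiles. Outlier spots made up 2.42% of the non-control spots on array 5 and 0.91% to 1.39% on the others. RA was well above background for 57.4% of probes on array 5 and for 60.5% to 74.6% on the others. The part of array quality in the values was not tested. Of 30367 probes, 18006 (59.3%) were named through RefSeq transcript accessions. A probe was well above background on an array where at least a share of 0.5 of its spots were so marked. Since the RNA shared by arrays is not stated, limma was fitted to means of array pairs and the largest p of 24 pairings kept. The fit was tested on simulated data. For the deposited log2 table, each column ran with RA over vehicle (r from 0.985 to 1.00 across probes) and its median was within 0.0134 of 0. P-values measure the spread between these pair means, moderated by limma across all probes, and no other spread. The number of rats, 4 given RA and 4 given vehicle, limits the precision.

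The members, gene lists, motifs and alternatives were chosen with earlier results of these data known. Named were the 10 members; the genes of each wider list that passed, or otherwise the 2 furthest from 0 among genes above background in at least 1 channel of every array; the 5 genes nearest to Cp; and Ttr and Agrp as markers of arrays that stood apart. Other marker genes and Mt3, Mt4, Mtf1 and Slc39a14 were named after their values were seen. The number of wider genes was 79, of which 71 were on the array; 1 further gene of the lists is not reported here. Alternatives covered the background correction, normalisation, scaling, outlier spots, dye order, slide row, probe choice, pairing, threshold and leaving out pairs of arrays. Probe sequences and protein sequences were not used here.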

Additional observations from a re-analysis of the deposited data

Results flagged for a closer look

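Among 19 probes (15 of the members and 4 of the wider lists), each searched within the 4 arrays of either dye order, 1 array stood far from the rest: for Slc40a1, array 8 was at 0.67 where the other 3 arrays with RA in Cy5 were between -0.13 and -0.08. Chance marks about 1 in 20 of such groups, and 38 were searched. The other Slc40a1 probe was at 0.21 on the same array. On arrays 8 and 5, Agrp, a peptide of arcuate neurons, was at -1.04 and -1.11, and between -0.09 and 0.05 on the others.

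For the second Fth1 probe the sign turned with the dye. All 4 arrays with RA in Cy5 were above 0 and all 4 with RA in Cy3 below 0, a difference of 0.36 on the log2 scale. The brightest Fth1 probe had a difference of 0.30. The split was chosen after the values were seen, and no test of it is given because arrays of the 2 dye orders share RNA.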

How the results depend on the processing

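The mean log2 ratios of Cp, Lcn2, Steap4, Slc11a1, Hmox1 and Ftl1 were above 0 under all 27 alternatives. Cp lay between 1.74, the mean of its probes, and 3.22, the second slide row alone, and from 2.38 to 2.88 when a pair of arrays was left out. The median of the members ran from 0.24 to 0.83, the values of the slide rows. Fth1 (-0.11 to 0.19), Tf (-0.03 to 0.44) and Tfrc (-0.01 to 0.18) were above 0 under 26 of 27 alternatives and Slc40a1 (-0.18 to 0.13) under 11. The means of Fth1, Tf, Tfrc and Slc40a1 were within the spread between arrays. All alternatives use the same arrays or some of them, so a count over them does not measure certainty.

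The counts of calls moved more. Over all probes 988 passed, against 237 with plain background subtraction, 330 with Agilent's log ratio, 2485 with 8 independent arrays and a dye term, 3141 with the pairing that gave the most calls, 0 at an adjusted p under 0.05, and 456 to 1110 with a pair of arrays left out. The 3 higher genes of the wider lists became 0, 0, 6, 7 and 0 under these settings and 2 to 5 with a pair left out. The 1 lower gene became 0 with plain background subtraction and at the adjusted threshold, 4 with independent arrays, 3 with the pairing of most calls and 0 or 1 with a pair left out. Among the fits with a pair left out, the lowest counts came without arrays 8 and 5 (456 over all probes) and without array 8 together with 4, 5 or 7 (2 higher genes). Pairing array 1 with 2, 3 with 4, 6 with 7 and 8 with 5, chosen after seeing the data because these arrays lay close together over the members, gave 1081 calls, 5 higher and 1 lower in the lists.

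An analysis paired by rat was not possible because the labels number the arrays and not the rats, and do not say which arrays share RNA. The 24 pairings fitted join arrays of opposite dye, not arrays known to share RNA. The causes of these differences were not tested. Dim probes such as Lcn2 and the second probes of Steap4 and Tfrc are limited by their signal over background.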
